A study of Mus musculus with 3 samples.

Results

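The gasdermins of the colon and of the squamous skin of the anus were followed here as 7 genes, Gsdma, Gsdmc, Gsdmc2, Gsdmc3, Gsdmc4, Gsdmd and Gsdme, taken by symbol from the 31053 genes of a single-cell RNA sequencing table of mouse distal colon and anus. The genes were chosen with their levels in these cells known, so every level and every difference between days below is a description, and no test is given on it. Each day is a single library of tissue pooled from 5 C57Bl/6 mice bought at 6 weeks of age, so no replicate error exists between mice. Day 0 mice were untreated, and the mice of days 7 and 42 had drunk water with 3% dextran sulfate sodium (DSS), a detergent-like polymer that injures the colonic lining, for the first 6 days. Per the labels, histology was normal at day 0, showed severe colitis at day 7 and had recovered at day 42. Tissue was dissociated with trypsin, cells binding annexin V were removed as dead, and 3′ transcript ends were counted with unique molecular identifiers (UMIs), 1 per captured molecule.

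Gasdermins are 2-domain proteins whose N-terminal domain makes pores in membranes once a protease has cut it free of the C-terminal domain that restrains it. The pores release cytokines such as Il1b and Il18 and can end in pyroptosis, a lytic death. Gsdmd is cut by the inflammatory caspases Casp1 and Casp4. Gsdma is known from skin and the upper digestive tract, and the Gsdmc paralogs are known from the intestinal lining, where type 2 cytokines can raise them. RNA counts say nothing of the cutting of these proteins.

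For days 0, 7 and 42 the libraries held 11037, 14376 and 11667 cells, with median depths of 5995, 6218 and 5708 UMIs per cell, and 44, 40 and 55 cell barcodes were shared by days 0 and 7, 0 and 42, and 7 and 42. The day 0 library, against which every ratio is taken, had 32.1% of cells with over 20% mitochondrial counts, beside 14.9% and 13.0% at days 7 and 42. With such cells and those under 1000 UMIs or 500 genes left out, the same number of members was past 2-fold in each class and day, and Gsdmd in columnar cells had log2 ratios of 2.09 and 0.85 in place of 1.79 and 0.67. The deposited cell table sorts the cells into 29 clusters under 14 annotations. Keratinocytes (10 clusters, 3316, 9035 and 7970 cells at days 0, 7 and 42) are called squamous here, and colonocytes, secretory colonocytes and enteroendocrine cells (5 clusters, 4306, 1062 and 1680 cells) are called columnar. Over each class the markers fitted the labels: the 7 squamous markers (Krt5, Krt14, Krt1, Krt10, Trp63, Sfn, Dsg3) summed to 13982 to 22312 counts per 1000000 UMIs (CPM) in squamous and 1238 to 3078 CPM in columnar cells, and the 8 columnar markers (Krt8, Krt20, Car1, Slc26a3, Aqp8, Lgals4, Phgr1, Vil1) to 11687 to 19227 CPM in columnar and 103 to 273 CPM in squamous cells. Single clusters could differ: cluster 22, annotated as colonocytes, held 9694 CPM of squamous beside 10039 CPM of columnar markers at day 7, and the 12 enteroendocrine cells of that day held 6941 CPM of squamous beside 1354 CPM of columnar markers, with 4 of the 8 at 0. The clusters were made from the same cells, so a member's level in a cluster against the rest is no test. CPM are UMIs of a gene per 1000000 UMIs of the cells named, and the 95% intervals in brackets are exact Poisson for CPM and Clopper-Pearson for shares. They cover counting error only.

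The members lie at 4 places of the mouse genome (GRCm38, GENCODE M21 gene models). Gsdma lies at chr11:98664351-98677708 on the plus strand, beside its paralogs Gsdma3 and Gsdma2. Gsdmc (chr15:63775968-63808759), Gsdmc2 (chr15:63824346-63845177), Gsdmc3 (chr15:63857724-63878558) and Gsdmc4 (chr15:63891264-63912297) follow each other on the minus strand with pseudogenes between them, and Gsdmd lies apart at chr15:75862327-75867408 on the plus strand. Gsdme, at chr6:50188888-50263862 on the minus strand, is the only member that overlaps another annotated gene, Mpp6 on the opposite strand at its 3′ end.

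Gsdmc2, Gsdmc3 and Gsdmc4 are near copies, which bears on how reads can be assigned to them. Each codes for 480 amino acids. Over the aligned coding bases Gsdmc2 and Gsdmc3 were 97.1% identical, each was 93.8% identical to Gsdmc4, and Gsdmc was 87.0% to 87.5% identical to the 3. The last 120 coding bases, stop codon included, are shown because they lie near the 3′ end that was counted, with capitals at the 7 positions where the 3 genes are not all alike:
Gsdmc2: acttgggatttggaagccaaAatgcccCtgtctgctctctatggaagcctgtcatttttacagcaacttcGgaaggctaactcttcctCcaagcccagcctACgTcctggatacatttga
Gsdmc3: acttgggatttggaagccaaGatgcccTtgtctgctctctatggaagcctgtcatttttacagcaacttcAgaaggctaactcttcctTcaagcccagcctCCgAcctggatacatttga
Gsdmc4: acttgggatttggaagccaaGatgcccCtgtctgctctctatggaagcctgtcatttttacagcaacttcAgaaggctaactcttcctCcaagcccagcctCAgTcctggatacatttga

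In this stretch Gsdmc2 differs from Gsdmc3 at 6 positions and from Gsdmc4 at 4. Of the 90-base windows in the last 500 bases of each gene's coding transcripts, the share found in no other gasdermin transcript was 76.4% for Gsdmc2, 85.6% for Gsdmc3, 88.9% for Gsdmc, and 100% for Gsdmc4, Gsdma, Gsdmd and Gsdme. Of the windows of Gsdmc2 that were not unique, 77 were shared with Gsdmc3, 52 with Gsdmc and 0 with Gsdmc4. With 50-base windows the shares were 57.2% for Gsdmc2, 68.1% for Gsdmc3, 70.3% for Gsdmc and 92.0% for Gsdmc4, and 23 windows of Gsdmc2 were shared with Gsdmc4. Reads in shared windows could be dropped or split by the counting, so levels of Gsdmc, Gsdmc2 and Gsdmc3 are less certain than that of Gsdmc4. The summed level of Gsdmc2, Gsdmc3 and Gsdmc4 is given as well.

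**Figure D1:**
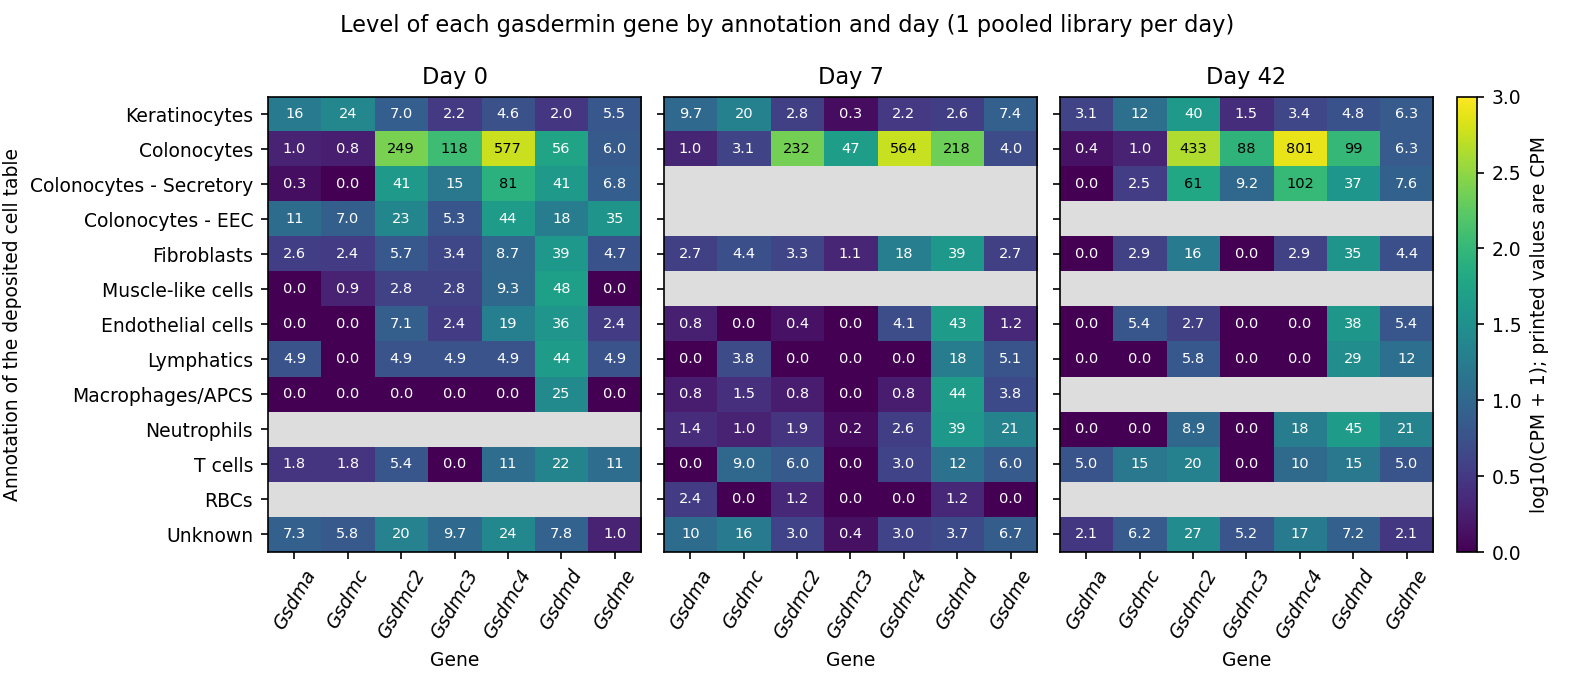
Level of the 7 genes (columns) in each annotation (rows) at days 0, 7 and 42; colour is log10(CPM + 1), the printed values are CPM, and grey marks annotations with fewer than 50 cells in that library. Gsdmc2, Gsdmc3 and Gsdmc4 are highest in colonocytes on all 3 days, and Gsdmd is at 12.1 CPM or more in each stromal and immune annotation with a printed value, red blood cells and unknown cells aside, and under 5 CPM in keratinocytes.

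Gsdmc4 had the most UMIs of the 7 genes in each library, 23551, 5193 and 8289 over the 3 days. Columnar cells held 98.1% of all UMIs of Gsdmc2, Gsdmc3 and Gsdmc4 together at day 0, 90.5% at day 7 and 83.1% at day 42. Gsdmc4 was the highest of the 3, with 530 CPM in columnar cells at day 0, 545 CPM at day 7 and 722 CPM at day 42. Gsdmc2 stood at 229.6 [225 to 234], 224 [214 to 234] and 391 [379 to 403] CPM, and Gsdmc3 at 108 [105 to 111], 45.5 [41.1 to 50.1] and 79.2 [74.1 to 84.6] CPM. Over all columnar cells Gsdmc2 and Gsdmc4 were thus close at days 0 and 7 and higher at day 42, while Gsdmc3 was lowest at day 7, with intervals that do not overlap between any of the days. Within cluster 2, however, Gsdmc2 had 325 [316 to 335], 232 [221 to 244] and 497 [478 to 517] CPM and Gsdmc4 had 669 [655 to 683], 590 [572 to 609] and 860 [835 to 886] CPM, so that both were lower at day 7 than at day 0 there.

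Summed, the 3 genes reached 868, 814 and 1192 CPM in columnar cells, log2 ratios against day 0, with 10 CPM added to each level, of -0.09 at day 7 and 0.45 at day 42 (the median of all genes was -0.15 and -0.04). The small lower value at day 7 turns positive, 0.13, under median-of-ratios size factors. Gsdmc3 alone had a log2 ratio of -1.09 at day 7 [-1.24 to -0.93], which is -0.89, short of 2-fold, under median-of-ratios size factors. Its share of the UMIs of the 3 genes fell from 12.4% [12.1 to 12.8] to 5.58% [5.07 to 6.14] and was 6.64% [6.23 to 7.08] at day 42. The shift was seen inside clusters too: in colonocyte cluster 2 the share of Gsdmc3 was 11.5%, 5.76% and 5.67% at the 3 days, and in cluster 7 it was 13.1% at day 0 and 7.94% at day 42, when that cluster had 1809 and 412 cells. The balance between the copies therefore moved away from Gsdmc3 in colonocytes of both clusters, within these 3 pooled libraries.

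The paralogs were higher in cells annotated as colonocytes (clusters 2, 7 and 22) than in secretory colonocytes and enteroendocrine cells. Beside the cluster 2 levels above, cluster 7 held Gsdmc4 at 533 CPM at day 0 and 738 CPM at day 42. Secretory colonocytes had 80.5 CPM of Gsdmc4 at day 0 and 102 CPM at day 42, and the 78 enteroendocrine cells of day 0, hormone-making cells, had 44.0 CPM. The 279 day 7 cells of cluster 22, annotated as colonocytes and under 50 cells in the other libraries, had 471 CPM. These cells also held the squamous markers given above, all 4 neutrophil markers (S100a8, S100a9, Csf3r, Retnlg) at a sum of 12421 CPM and both red blood cell markers at 3975 CPM, and their part in the levels of cluster 22 was not tested. All columnar clusters with 50 cells or more kept the same order of levels, Gsdmc4 over Gsdmc2 over Gsdmc3.

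Cells often carried UMIs assigned to more than 1 of the copies, though counts of near-identical copies can be split by the counting. Over the 3 days, 31.2% [29.8 to 32.6], 13.3% [11.3 to 15.5] and 21.3% [19.4 to 23.3] of columnar cells had UMIs of all 3, at median depths of 8917, 4017 and 5952 UMIs. A UMI of Gsdmc4 was found in 56.4%, 47.2% and 46.0% of columnar cells, against 2.74%, 0.847% and 1.65% of T cells, which should lack it, at median depths of 2064, 2260 and 1393 UMIs. With every cell thinned to 1000 UMIs the columnar shares were 24.7%, 23.0% and 28.6% (T cells 1.03%, 0% and 1.11%), so the lower unthinned share at day 42 runs against the level and gives no order. The thinned share of Gsdmc3 was 8.06%, 2.24% and 6.12%, lowest at day 7 as its level was.

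**Figure D2:**
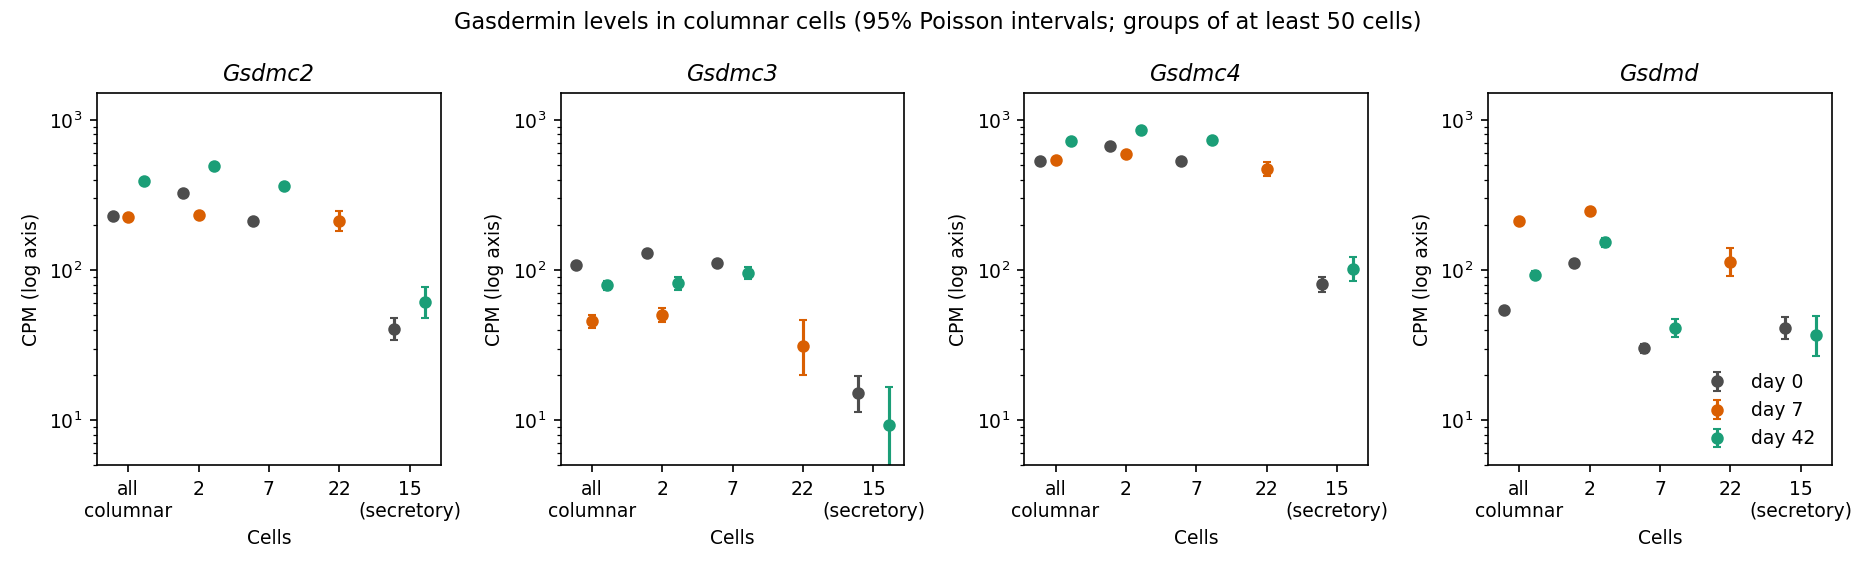
Levels of 4 gasdermin genes (panels, CPM on a log axis) in all columnar cells and in 4 columnar clusters at days 0, 7 and 42; points are pooled libraries and bars 95% Poisson intervals, drawn for groups of at least 50 cells. Gsdmd is highest at day 7 and Gsdmc3 lowest at day 7, while Gsdmc2 and Gsdmc4 are highest at day 42.

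Gsdmd, the pore former downstream of inflammasomes, had its highest level in colonocytes at day 7. In columnar cells it stood at 54.3 [52.2 to 56.5], 212 [203 to 222] and 92.2 [86.7 to 98.0] CPM over the 3 days, log2 ratios of 1.79 and 0.67. A UMI of it was present in 36.6%, 55.0% and 40.1% of columnar cells, although the day 7 cells were the shallowest, and in 7.00%, 16.3% and 10.9% after thinning (T cells 2.05%, 0.926% and 2.22%). The mix of colonocytes differed between the days as well: cluster 7, with 30.0 CPM at day 0 and 41.1 CPM at day 42, made up 1809 of 4306 columnar cells at day 0 and 33 of 1062 at day 7. Those 33 cells held 111 [91.7 to 134] CPM. Within cluster 2 the levels were 111 [105 to 117], 246 [234 to 258] and 154 [143 to 165] CPM, a log2 ratio of 1.08 at day 7, and in cluster 22 the day 7 level was 114 [91.2 to 140] CPM.

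Beside this difference, all 4 neutrophil markers were seen in columnar cells at day 7, summing to 2217 CPM, against 0.797 CPM at day 0, with 1 of the 4 at 0, and 103 CPM at day 42. In cluster 2 they summed to 1.33 CPM (1 at 0), 1321 and 94.6 CPM. Neutrophils themselves held 38.6 [32.9 to 45.0] CPM of Gsdmd at day 7. The part of neutrophils in the columnar level was not tested. Of the 5 members tested in columnar cells, those with at least 5 CPM in either library, 1 was at least 2-fold higher at day 7 (Gsdmd) and 1 at least 2-fold lower (Gsdmc3, with the scaling limit given above), where 3.37% and 2.03% of all genes tested were. At day 42 none of the 5 was past that fold in either direction (1.16% of all genes higher and 0.361% lower). Within cluster 2 Gsdmd was again past it at day 7 (2.53% of all genes) and Gsdmc3 again lower (0.871%). The rule that chose the members used these levels, so the counts are given without a reading.

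Outside the epithelia Gsdmd levels lay close together at day 0. It stood at 48.3 CPM in muscle-like cells, 44.1 in lymphatic, 39.0 in fibroblasts, 35.6 in blood endothelial cells, 25.4 in macrophages and 21.7 CPM in T cells, and the intervals of neighbours in that order overlapped. In fibroblasts the level was 39.0, 38.8 and 35.0 CPM over the 3 days, and in endothelial cells 35.6, 43.0 and 37.6 CPM. The intervals of the 3 days overlapped in both. At day 7 colonocytes, with 218 [208 to 228] CPM, stood above the next annotation, macrophages with 43.7 [33.2 to 56.5] CPM, while at day 0 their interval overlapped that of muscle-like cells. Keratinocytes had 2.00, 2.64 and 4.77 CPM of Gsdmd, and after thinning a UMI in 0.122%, 0.490% and 0.546% of cells. The T-cell shares given above were higher on each day, and they rest on 4, 1 and 2 T cells with a UMI.

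**Figure D3:**
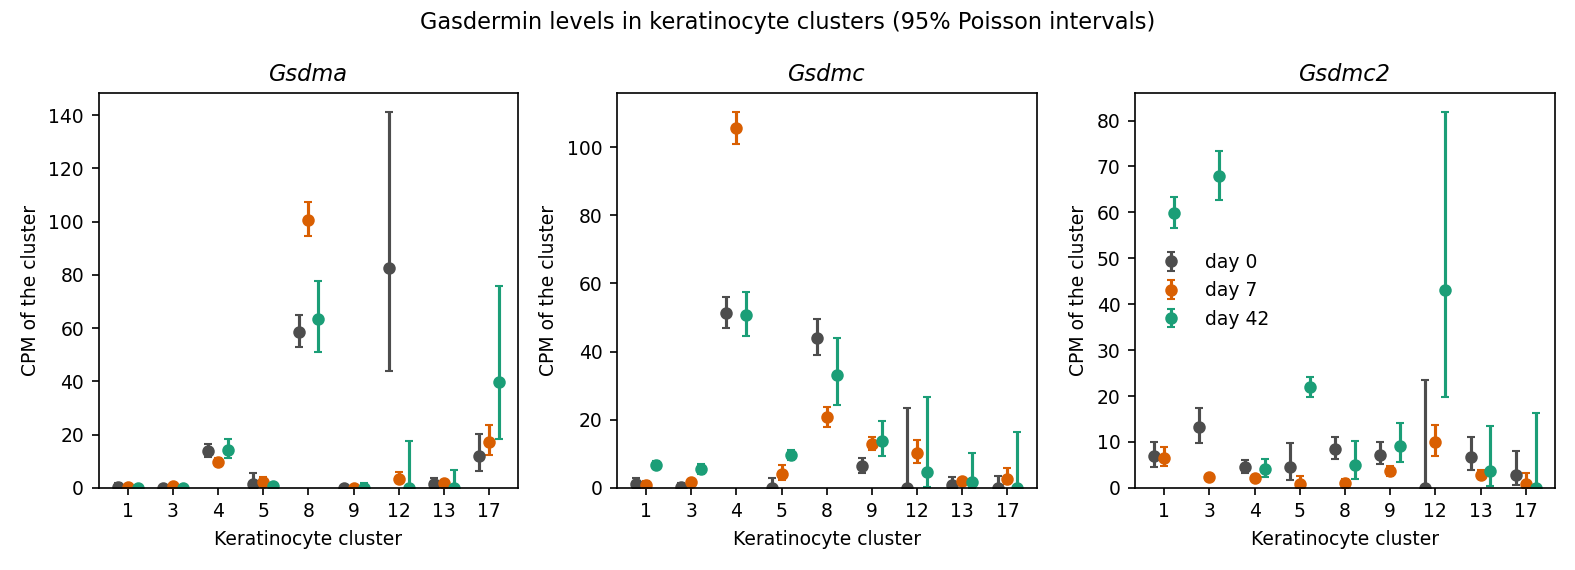
Levels of Gsdma, Gsdmc and Gsdmc2 (CPM, linear axis) in 9 keratinocyte clusters at days 0, 7 and 42; bars are 95% Poisson intervals and each point is 1 pooled library. Gsdma is highest in cluster 8 at days 7 and 42, Gsdmc in clusters 4 and 8, and Gsdmc2 stands out at day 42 in clusters 1 and 3; the wide day 0 point of Gsdma in cluster 12, at 82.5 CPM above the 58.6 CPM of cluster 8 with overlapping intervals, comes from 1 cell of 51.

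Gsdma, the skin gasdermin, was a gene of few squamous cells. Keratinocytes held 15.6 [14.3 to 16.9] CPM at day 0, 9.67 [9.14 to 10.2] CPM at day 7 and 3.15 [2.71 to 3.64] CPM at day 42, with a UMI in 5.28%, 4.15% and 1.08% of cells (T cells 0.457%, 0% and 0.826%) and in 1.25%, 0.969% and 0.317% after thinning (T cells 0%, 0% and 1.11%, the last 1 cell of 90). The T-cell intervals after thinning, 0 to 1.87, 0 to 3.36 and 0.0281 to 6.04, hold or overlap the keratinocyte shares on all 3 days and rest on 195, 108 and 90 cells. In larger groups the thinned shares were 0% [0 to 0.281] in fibroblasts and 0.0940% [0.0256 to 0.240] in columnar cells at day 0, 0.0703% [0.00178 to 0.391] in neutrophils and 0.583% [0.214 to 1.26] in columnar cells at day 7, and 0% [0 to 0.240] in columnar cells at day 42. Keratinocytes stood at 1.25% [0.898 to 1.69], 0.969% [0.772 to 1.20] and 0.317% [0.205 to 0.468], so their intervals overlapped those of columnar cells at days 7 and 42 and no other of these. Cluster 8 carried 361 of 529 keratinocyte UMIs at day 0, 931 of 1241 at day 7 and 90 of 183 at day 42, with 68 of the last in cluster 4. Its levels were 58.6 [52.7 to 65.0], 101 [94.4 to 107] and 63.3 [50.9 to 77.8] CPM, so that within this cluster the level was highest at day 7 and alike at days 0 and 42. Cluster 4 held 14.0, 9.58 and 14.4 CPM and cluster 17 held 11.9, 17.2 and 39.9 CPM, the last from 2 of 63 cells.

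For Gsdma the class and cluster 8 differed in direction. The log2 ratios over all keratinocytes were -0.38 at day 7 and -0.96 at day 42, but with equal weight for the 9 clusters of at least 50 cells they shrank to -0.20 and -0.32, and in cluster 8 alone they were 0.69 [0.48 to 0.90] and 0.10 [-0.30 to 0.49]. The day 42 ratio of the class passed 2-fold under other settings, at -1.25 with totals that leave out mitochondrial and ribosomal protein genes and at -2.00 with 1 CPM added. Cluster 8 was 781 of 3316 keratinocytes at day 0, 943 of 9035 at day 7 and 364 of 7970 at day 42. This cluster carries the sebaceous and duct markers (Krt79, Scd1, Mgst1, Plin2), which summed to 3603, 3537 and 3122 CPM in it and to 1842, 1942 and 320.1 CPM in all keratinocytes. The 4 hair markers (Krt25, Krt71, Krt27, Krt31) summed to 525, 119 and 21.1 CPM in all keratinocytes, and their part in the class level was not tested.

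Gsdmc was highest in cluster 4, and like Gsdma it was also found in cluster 8. It stood at 23.7 [22.1 to 25.4], 19.8 [19.1 to 20.6] and 11.8 [10.9 to 12.7] CPM in keratinocytes, with a UMI in 11.0%, 11.9% and 5.51% of cells (T cells 0.457%, 1.69% and 2.48%) and in 2.01%, 2.10% and 0.939% after thinning. The thinned T-cell shares were 0%, 1.85% [0.225 to 6.53] and 2.22% [0.27 to 7.80], and the intervals of keratinocytes and T cells overlapped on all 3 days. In the larger group of columnar cells the thinned shares were 0.0940% [0.0256 to 0.240], 0.292% [0.0602 to 0.850] and 0.130% [0.0158 to 0.470], below those of keratinocytes at 2.01% [1.56 to 2.55], 2.10% [1.81 to 2.43] and 0.939% [0.738 to 1.18] with no overlap on any day. In cluster 4, 51.3 [46.9 to 56.0] CPM at day 0 became 106 [101 to 110] CPM at day 7 and 50.7 [44.5 to 57.5] CPM at day 42. At day 7 a UMI was found in 696 of the 1315 cells of cluster 4, or 52.9%, against 28.7% at day 0 and 21.6% at day 42. The 4 neutrophil markers summed to 56.0 CPM (1 of the 4 at 0), 2693 CPM and 299.8 CPM in cluster 4 over the 3 days and to 4.06 CPM (1 at 0), 1066 CPM and 227 CPM in cluster 8, and their part in either gene's level was not tested. In cluster 8 the order was the other way round, with 44.0 [38.9 to 49.6], 20.7 [17.8 to 23.8] and 33.1 [24.3 to 44.0] CPM. Gsdma and Gsdmc thus moved in opposite directions at day 7 in each of these clusters, Gsdma higher and Gsdmc lower in cluster 8, and Gsdmc higher and Gsdma lower in cluster 4.

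Over all keratinocytes the log2 ratios of Gsdmc were -0.18 at day 7 and -0.63 at day 42, and with equal weight for clusters they were 0.37 and 0.15, so no direction is given for the class. Lower levels appeared at day 42 in clusters where the gene had been near 0: cluster 5 had 0, 4.07 and 9.52 CPM, cluster 1 had 1.22, 0.893 and 6.65 CPM, and cluster 3 had 0.260, 1.63 and 5.43 CPM over the 3 days. In cluster 5 the 0 UMIs of day 0 allow up to 2.76 CPM, the upper end of the Poisson interval, and 105 of 2153 cells had a UMI at day 42. T cells of the day 42 library had 15.0 [3.10 to 44.0] CPM of Gsdmc from 3 UMIs, an interval that holds the level of all 3 clusters. Columnar cells of that library had 1.25 [0.685 to 2.10] CPM, below each of them, and fibroblasts had 2.92 CPM from 2 UMIs. Gsdmc2, given below, was also higher at day 42 than at day 0 in these 3 clusters. Of the windows of Gsdmc in the last 500 bases, 46 of 414 of 90 bases and 126 of 454 of 50 bases are shared with Gsdmc2. The part of reads from Gsdmc2 in these counts of Gsdmc was not tested.

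The colon paralog Gsdmc2 was also counted in keratinocytes at day 42. Its level there was 6.97 [6.11 to 7.92] CPM at day 0, 2.75 [2.47 to 3.05] CPM at day 7 and 40.4 [38.8 to 42.1] CPM at day 42, a log2 ratio of 1.57 [1.44 to 1.69] for day 42. It was the only one of the 4 members tested in keratinocytes that was at least 2-fold higher at day 42 (2.31% of all genes tested were). None was at least 2-fold lower then (1.99%), and at day 7 none was past the fold in either direction (1.15% higher and 0.971% lower). These counts depend on the setting: Gsdma passed 2-fold lower at day 42 as given above, and Gsdmc2 had -1.09 at day 7 with 1 CPM added. Gsdmc4, which is higher than Gsdmc2 in colonocytes, stood at 4.56, 2.16 and 3.35 CPM in the same keratinocytes and Gsdmc3 at 2.21, 0.265 and 1.46 CPM.

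The day 42 UMIs of Gsdmc2 lay in a few keratinocyte clusters. Cluster 1 had 6.86, 6.55 and 59.9 [56.6 to 63.4] CPM over the 3 days, cluster 3 had 13.3, 2.31 and 67.9 [62.8 to 73.3] CPM, and cluster 5 had 4.49, 0.871 and 21.9 [19.8 to 24.1] CPM. Clusters 4 and 8, which hold Gsdmc and Gsdma, had 4.01 and 4.92 CPM at day 42. Within cluster 1 at day 42, 421 of 3043 cells had a UMI of Gsdmc2, 73 had 5 or more, and the highest cell had 29. Within cluster 1 this was 2-fold or more higher than at day 0, as were 2.46% of all genes tested there, and Gsdmc2 was past that fold in cluster 3 (1.36%) and cluster 5 (1.47%) as well.

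The mix of the copies in keratinocytes was set beside that in columnar cells. In columnar cells there were 0.433, 0.412 and 0.542 UMIs of Gsdmc2 per UMI of Gsdmc4 over the 3 days, in keratinocytes 1.53, 1.27 and 12.0, and in cluster 1 2.33, 7.33 and 25.7. The ratio was thus above that of columnar cells on every day, at low levels of both genes on days 0 and 7. Per 1000 UMIs of 6 colonocyte genes (Car1, Krt20, Slc26a3, Aqp8, Lgals4, Phgr1), Gsdmc2 had 36.7, 18.0 and 39.5 UMIs in columnar cells and 97.9, 180 and 616 in cluster 1 over the 3 days, and at day 42 it had 708 in cluster 3 and 40.6 [36.7 to 44.7] in cluster 5. Krt20, however, made 8737 of the 10037 UMIs of these genes in cluster 5. Without it, a choice made after the data were seen, the day 42 values per 1000 UMIs of the other 5 genes were 40.8 [39.6 to 42.0] in columnar cells, 1323 in cluster 1, 1570 in cluster 3 and 313 [283 to 345] in cluster 5. Cluster 5 was thus close to columnar cells with the 6 genes and above them with the 5, and clusters 1 and 3 were above them with both. Cluster 4, with 54.6 [32.9 to 85.3], and cluster 8, with 63.1 [25.4 to 130], had intervals that hold the columnar value. Fibroblasts, with 141 [70.4 to 252] from 11 UMIs, and T cells, with 4 UMIs of Gsdmc2 beside 16 of the 5 genes, also stood above it. The part of RNA free in the suspension in these levels was not tested. These other cell types of that library had Gsdmc2 at 16.1 [8.01 to 28.7] CPM in fibroblasts, 20.1 [5.47 to 51.4] CPM in T cells and 2.69 [0.068 to 15.0] CPM in endothelial cells. A UMI of Gsdmc2 was found in 10.3% of keratinocytes at a median depth of 6542 UMIs and in 3.31% of T cells at 1393, and after thinning in 2.80% [2.45 to 3.19] and 1.11% [0.0281 to 6.04], intervals that overlap.

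The 421 cells of cluster 1 with a UMI of Gsdmc2 were set beside the 2622 without one, as a description, since the cells were picked by that gene. Of the colonocyte genes, Krt20 was lower in the cells with Gsdmc2, at 42.6 [36.0 to 50.1] against 53.9 [50.5 to 57.5] CPM. The intervals of the others overlapped, among them Lgals4 at 22.8 [18.0 to 28.4] against 26.5 [24.1 to 29.1] CPM. Car1 was at 2.92 [1.40 to 5.37] against 4.31 [3.38 to 5.41] CPM. In cluster 1 the other copies were higher in the cells with Gsdmc2, Gsdmc3 at 8.47 [5.67 to 12.2] against 0.932 [0.533 to 1.51] CPM and Gsdmc4 at 4.67 [2.67 to 7.59] against 1.86 [1.27 to 2.63] CPM. In cluster 3 both were higher as well, Gsdmc3 at 10.8 against 0.393 CPM and Gsdmc4 at 8.25 against 1.57 CPM, while in cluster 5 Gsdmc4 was, at 30.9 against 1.74 CPM, and Gsdmc3 was at 0.524 [0.0133 to 2.92] against 0.719 [0.372 to 1.26] CPM. Alox15, a lipoxygenase, was at 50.8 [43.5 to 58.9] against 8.39 [7.07 to 9.88] CPM, and Il4ra, a chain of the receptors for the type 2 cytokines Il4 and Il13, at 54.3 [46.8 to 62.7] against 28.2 [25.7 to 30.8] CPM. For Il4ra the intervals overlapped in cluster 3, 35.1 [27.2 to 44.5] against 24.1 [20.7 to 27.9] CPM, and in cluster 5, 35.1 [27.2 to 44.5] against 28.8 [26.3 to 31.5] CPM. Alox15 was higher in the cells with Gsdmc2 in both, at 80.5 against 14.1 CPM and 381 against 185 CPM. Gsdmc itself was at 19.9 [15.4 to 25.2] against 4.02 [3.13 to 5.09] CPM in cluster 1. Of the 50-base windows, 259 of 905 of Gsdmc3, 126 of 454 of Gsdmc and 23 of 452 of Gsdmc4 are shared with Gsdmc2. The part of split reads in the levels of these 3 genes was not tested. In cluster 5, by contrast, the cells with Gsdmc2 also had more of each colonocyte gene except Krt20. Car1 was at 85.9 against 3.60 CPM and Lgals4 at 169 against 21.2 CPM there. Krt20 was lower in the cells with Gsdmc2, at 382 [354 to 410] against 480 [470 to 491] CPM. In cluster 3 Lgals4, Phgr1 and Slc26a3 were higher in the cells with Gsdmc2, Lgals4 at 56.2 against 16.8 CPM. The intervals of Car1, Krt20 and Aqp8 overlapped in that cluster. Leaving out every keratinocyte with a UMI of Car1, Slc26a3, Aqp8, Lgals4 or Phgr1, an alternative chosen after the data were seen, left the log2 ratio of Gsdmc2 at day 42 at 1.58.

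**Figure D4:**
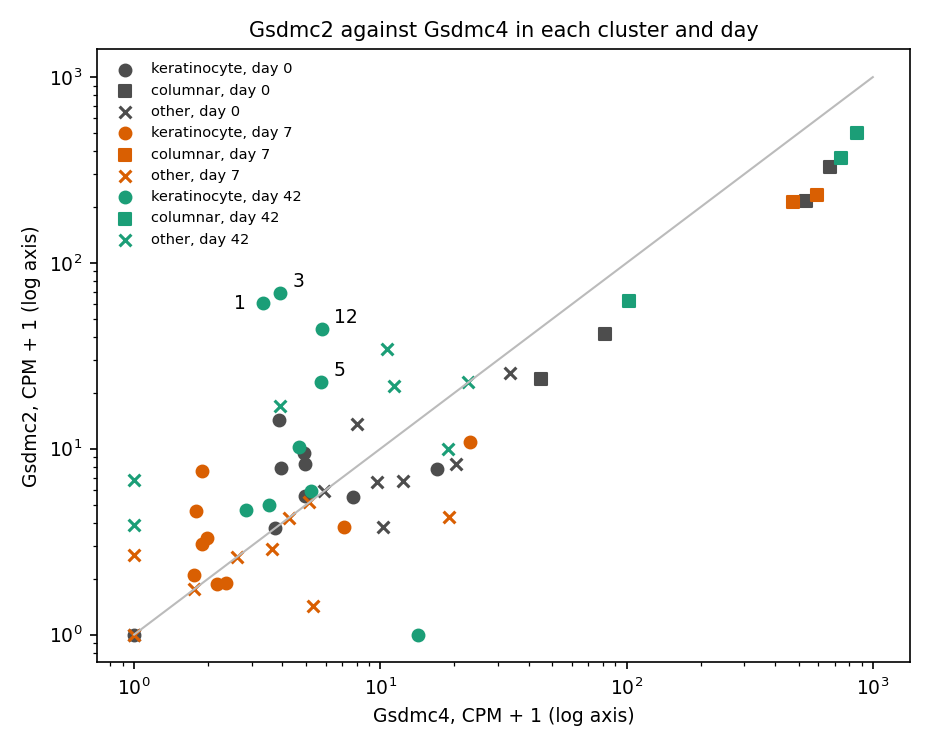
Level of Gsdmc2 against that of Gsdmc4 (CPM + 1, log axes) in every cluster and day with at least 50 cells; circles are keratinocyte, squares columnar and crosses other clusters, coloured by day, and the grey line marks equal levels. Columnar clusters lie below the line, and keratinocyte clusters 1, 3, 5 and 12 of day 42, labelled by number, lie above it. Clusters 1, 3, 4 and 8 lie above the line on the other days too, and clusters 4 and 8 also at day 42. Cluster 5 lies below it at days 0 and 7.

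Gsdme was low in nearly all cells. It stood at 5.50, 7.40 and 6.35 CPM in squamous and 6.43, 4.15 and 6.44 CPM in columnar cells over the 3 days, with log2 ratios between -0.21 and 0.17. The highest level of day 0 was in the 78 enteroendocrine cells, 35.2 [21.5 to 54.3] CPM, which overlaps that of T cells, 10.9 [3.98 to 23.6] CPM, where a UMI was present in 17 cells, or 21.8%, at a median depth of 6969 UMIs, against 2.28% of T cells at 2064. Neutrophils, which were under 50 cells at day 0, had 21.2 [17.0 to 26.1] CPM at day 7 and 20.9 [8.38 to 43.0] CPM at day 42. At day 7 neutrophils stood above the next annotation, keratinocytes, with intervals that do not overlap.

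The other gasdermin genes of the table were scarce. Gsdma2 reached 3.90, 10.6 and 12.7 CPM in cluster 8, from 9, 16 and 5 cells, and had no UMI in columnar cells, which allows up to 0.0841 CPM at day 0 by the Poisson interval. Gsdma3 had 20, 11 and 1 UMIs in all keratinocytes over the 3 days. Pjvk, the gasdermin known from hearing, had 2 UMIs in each whole library.

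Genes that cut gasdermins or act with them were counted in columnar cells from lists set with earlier results known. Of 10 proteases, 6 passed the level filter of 5 CPM and none was past 2-fold at day 7 (3.37% of all genes tested were higher), with a median log2 ratio of 0.39 beside -0.15 for all genes. Casp8, an initiator of cell death, had the largest ratio of them at 52.4 and 109 CPM on days 0 and 7, and Casp1 had 64.0 and 83.8 CPM. Within cluster 2 Casp8 was past 2-fold, at 50.3 and 119 CPM, a log2 ratio of 1.10 (2.53% of all genes tested). Of 13 inflammasome sensors and the adaptor, 10 passed the filter and 1 was past 2-fold (again beside 3.37%), Naip1, a sensor of bacterial proteins, at 64.9 and 140.0 CPM, with a list median of 0.09. Within cluster 2, however, Naip1 was 145 and 162 CPM, and Pycard, the adaptor, was high on both days in all columnar cells (549 and 492 CPM).

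Of the 9 genes downstream, 8 passed the filter and 2 were at least 2-fold higher in columnar cells at day 7 (3.37% of all genes), with a list median of 0.61. Il18, a cytokine released through gasdermin pores, went from 83.7 to 385 CPM, and in cluster 2 from 158 to 431 CPM. Il1b went from 4.74 to 126 CPM in the same cells that held the neutrophil markers given above, and their part was not tested. None of the 9 was at least 2-fold lower, and at day 42 Il18 was at 150 CPM and no tested gene of the 3 lists was past the fold (1.16% of all genes were higher).

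Of the 9 genes of the type 2 cytokine pathway, 5 passed the filter in columnar cells. Retnlb, a goblet cell protein raised by type 2 cytokines, had 0.296, 13.2 and 163 CPM over the 3 days and was the one past 2-fold on both days (3.37% and 1.16% of all genes). The 4 goblet markers (Muc2, Tff3, Fcgbp, Agr2) summed to 1797, 1642 and 3232 CPM in the same cells. The part of goblet cells in the Retnlb level was not tested. Il4ra stood at 4.31, 18.1 and 9.93 CPM and Il13ra1 at 31.4, 68.7 and 44.8 CPM in columnar cells. In keratinocytes Il4ra was at 7.27, 24.8 and 26.4 CPM and Il33, an alarm cytokine of epithelium, at 13.1, 19.5 and 38.4 CPM, and these were the 2 of 5 tested genes of the list that were past 2-fold at day 42 (2.31% of all genes). At day 7 Il4ra was the 1 of 5 past it, with a log2 ratio of 1.01 (1.15% of all genes). Gsdmc2 was at its lowest level in keratinocytes that day, and any link between the 2 genes was not tested. Casp6 (18.6 and 54.8 CPM on days 0 and 42) was the 1 of 6 proteases past the fold at day 42, beside the same 2.31%.

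**Figure D5:**
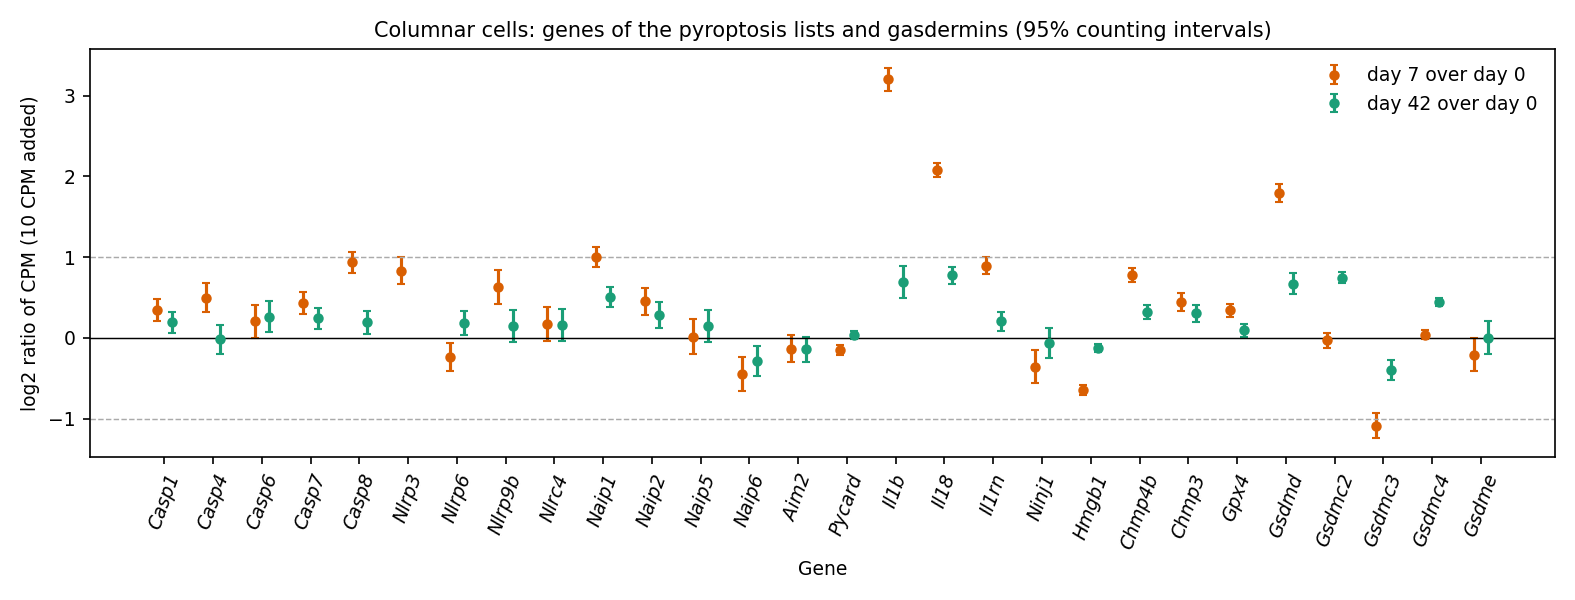
Log2 ratios of CPM (10 CPM added) in columnar cells, day 7 and day 42 each over day 0, for tested genes of 3 lists and the members; bars are 95% counting intervals and dashed lines mark 2-fold. Il1b, Il18, Gsdmd and Naip1 lie at or above the upper line at day 7 and Gsdmc3 below the lower one.

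For each member the genes with the most similar pattern were found over 60 units of cluster and day with at least 50 cells, by Pearson r of log2(CPM + 1) among 5354 genes, as a description, since the units share libraries and depth. Gsdmc4 was most like Krt8 (0.93), Lgals4 (0.93) and Muc3 (0.92), and Gsdmc3 was most like Cdx1 (0.90), Aoc1 (0.89) and Sycn (0.89), all genes high in colonocytes here. Gsdmc2 was less tightly placed, with r of 0.83 to Gsdmc4, 0.82 to Tmprss2, 0.80 to Gsdmc3 and 0.79 to Gpa33 and Kcne3. Among the genes nearest Gsdmd were Cd38 (0.86) and Mapre2 (0.82). Gsdma was nearest 2310046K23Rik (0.80), Atp6v1c2 (0.77) and Dsc1 (0.76), and Gsdmc nearest Stfa3 (0.71), Krt10 (0.68) and Krt1 (0.66), keratins of the upper epidermal layers. Gsdme had no close match, its highest values being Slc25a33 (0.66), Hdac4 (0.64) and Sephs2 (0.64). Gsdma and Gsdmc had an r of 0.42 with each other and Gsdmc and Gsdmc2 of -0.03.

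Promoters of 2 members, Gsdmc3 and Gsdme, were in the RefSeq table (GRCm38.p6). In the 250 bases before their starts, neither held on either strand any of the 5 motifs searched. These were the motif of STAT6, the factor that type 2 cytokines activate, that of the other STAT factors, that of GATA factors, written AGATAA, that of the intestinal CDX factors, which was searched as TTTATG, and that of the interferon regulatory factors (IRF). In the same order they were found in 5.85%, 7.02%, 9.99%, 10.8% and 2.98% of the 32851 promoters of the table over the same length.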

How the data were processed

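The deposited counts are whole UMIs per gene and cell, made by the authors from 3′ libraries, with Cell Ranger 3.0.2 and mm10 named per the submitters' processing notes. The annotation release and strand setting are not given in the sources used here. The deposited size factor of each cell, a ratio, equals its total count divided by 5283.43, and was used only in that check. Clusters, annotations and days came from the deposited cell table.

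The members and gene lists were chosen with earlier results of these data known. UMIs were summed over the cells of a cluster, annotation or class and day and divided by their total (CPM). CPM of 3′ counts are not scaled by length. Log2 ratios had 10 CPM added, and a gene counted as tested with at least 5 CPM in either library and as past the fold at a log2 ratio of 1. No test was run, since each day is 1 library. Groups under 50 cells were left out of ratios and orders of levels. Some are described with their cell numbers, such as the day 7 cells of cluster 7 and the enteroendocrine cells with and without Tph1. For shares, cells were thinned to 1000 UMIs, leaving out shallower cells. Named genes were the 7 members, the other gasdermins, 4 fixed lists and, per member, the 3 genes of highest r among those reaching 100 CPM, of which some are not reported here. The doublet caller Scrublet marked 420, 0 and 267 cells at its own threshold, so its top 5% (552, 719 and 583 cells) were left out as an alternative only. The tools were scanpy 1.11.5, biopython 1.88, matplotlib 3.10.9, scipy 1.17.1, pandas 2.3.3 and numpy 2.4.6 under Python 3.11.15. Summation was tested on simulated data.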

Additional observations from a re-analysis of the deposited data

Results flagged for a closer look

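Gsdma and Gsdmc moved in opposite directions at day 7 between keratinocyte clusters, each with a counting interval that leaves out 0. The difference between clusters was not tested. For Gsdma the log2 ratio against day 0 was -0.29 in cluster 4, 0.69 in cluster 8 and -2.79 in cluster 12, where all 13 day 0 UMIs lay in 1 of 51 cells. For Gsdmc it was 0.92 in cluster 4, -0.82 in cluster 8 and 0.49 in cluster 9.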

How the results depend on the processing

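No paired analysis was possible because each day is 1 library. Of the alternative values of the main results 52 moved and 76 did not, and of single members' values 94 moved and 80 did not. A ratio or share moved when it left the counting interval of the main value. A count of members has no such interval and moved when it changed past a set fold or from 0. The totals mix these kinds, and thinning lowers shares by its nature. Of the main ratios, 10 moved with equal weight per cluster, and 10 stayed without the cells of highest Scrublet score. Gsdmc over all squamous cells and the day 7 sum of the 3 paralogs changed sign, as listed. Values are log2 ratios against day 0, for cells filtered to 1000 UMIs, 500 genes and 20% mitochondrial counts, scaling by median-of-ratios, library totals that leave out ribosomal and mitochondrial genes, mean CPM per cell, thinned cells, 1 CPM added, equal weight per cluster, or without the 10 cells highest in the gene. Gsdma in squamous cells was -0.38 at day 7 (totals -0.50, mean -0.14, thinned -0.12, 1 CPM -0.63, equal -0.20) and -0.96 at day 42 (-1.25, -0.79, -0.83, -2.00, -0.32 in the same order). Gsdmc was -0.18 at day 7 (mean 0.04, thinned 0.03, equal 0.37) and -0.63 at day 42 (totals -0.81, 1 CPM -0.95, equal 0.15). Gsdmc2 was -0.41 at day 7 (totals -0.58, mean and thinned -0.18, 1 CPM -1.09, equal -0.27) and 1.57 at day 42 (totals 1.72, mean 1.41, thinned 1.36, 1 CPM 2.38, equal 1.08). Gsdmd in columnar cells was 1.79 at day 7 (filtered 2.09, median-of-ratios 1.99, mean 1.26, thinned 1.17, 1 CPM 1.95, equal 1.08) and 0.67 at day 42 (filtered 0.85, mean 0.83, equal 0.30). The sum of Gsdmc2, Gsdmc3 and Gsdmc4 was -0.09 at day 7 (median-of-ratios 0.13, totals -0.26, mean and thinned -0.33, top cells -0.18, equal -0.36) and 0.45 at day 42 (0.41 filtered, 0.54 median-of-ratios, 0.34 totals and mean, 0.50 thinned, 0.38 top cells, 0.40 equal). Members past 2-fold numbered 0 in squamous cells at day 7 (1 with 1 CPM added, Gsdmc2), 1 at day 42 (2 with totals or 1 CPM, Gsdma the second) and 2 in columnar cells at day 7 (1 with median-of-ratios, where Gsdmc3 was -0.89). The causes were not tested. Equal weight rests on cluster 2 alone for columnar cells at day 7. Low depth limits Gsdme, Gsdma2 and all groups of few cells.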

Other observations

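Gsdma was also counted in enteroendocrine cells, which were only 12 at day 7 and 12 at day 42, a result picked after its values were seen. At day 7, 7 of the 12 cells had a UMI of Gsdma: 6 of the 7 cells with a UMI of Tph1, the enzyme of serotonin synthesis in enterochromaffin cells, and 1 of the 5 without. At day 0 it was in 1 of 3 cells with Tph1 and in 2 of 75 without, and at day 42 in 1 of 2 and 0 of 10. The squamous gene Krt14 was also seen in these day 7 cells, with 13 UMIs in the cells with Tph1 and 442 in those without, and its part in the Gsdma count was not tested.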
